A study of Mus musculus with 6 samples.

Results

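The genes described here make, take up or export cholesterol in germinal centre B cells of mouse spleen: Apoe, Abca1, Hmgcs1, Sqle, Idi1, Fdps, Insig1 and Srebf2. They were taken by name and are 8 of the 14548 gene symbols listed in all 3 deposited count tables. Adult mice had received a protein carrying the hapten NP in alum adjuvant, and single cells of the sorted germinal centre fraction were sequenced from the 5′ end of the transcript in 6 libraries. In the KO library, sorted at day 14, wild-type bone marrow had rebuilt the blood of irradiated Ccl19Cre/+ Il4raf/f hosts, so that the interleukin 4 receptor alpha chain gene was open to deletion in host cells with Ccl19 promoter activity, such as lymphoid stroma, while the sequenced B cells descended from wild-type marrow. The control library, also of day 14, came from irradiated Il4ra+/+ hosts given the same kind of marrow. The Day14 group (2 libraries) and the Day7 group (2 libraries) came from wild-type mice not labelled as chimaeras. KO, control and Day14 cells were sorted as B220+ CD95hi GL7hi IgD-, and Day7 cells by another gate, B220+ CD38- GL7hi. The labels do not say how many mice stand behind a library, nor which cells of the irradiated hosts survived.

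Cells build cholesterol from acetyl-CoA through the mevalonate pathway. When sterols in the endoplasmic reticulum run low, the protein made from Srebf2 is carried to the Golgi, cut and sent to the nucleus, where it turns on the enzymes of synthesis; when sterols are plentiful, Insig proteins hold it back, and liver X receptors turn on exporters such as Abca1 and the lipid carrier Apoe. Germinal centre B cells divide in the dark zone (DZ) and are tested for antigen and T cell help in the light zone (LZ). Apoe, on chromosome 7 (19696109 to 19699188, minus strand), encodes the apolipoprotein that carries lipid between cells, and Abca1, on chromosome 4 (53030787 to 53159895, minus strand), encodes the pump that hands cholesterol to such apolipoproteins. Hmgcs1, on chromosome 13 (119690379 to 119708260, plus strand), encodes the synthase that makes HMG-CoA, and Idi1, also on chromosome 13 (8885501 to 8892451, plus strand), the isomerase of the isoprenoid building blocks. Fdps, on chromosome 3 (89093588 to 89101959, minus strand), encodes the synthase that joins these blocks into farnesyl diphosphate, and Sqle, on chromosome 15 (59315077 to 59331192, plus strand), the epoxidase that commits squalene to sterols. Insig1, on chromosome 5 (28071363 to 28078662, plus strand), and Srebf2, on chromosome 15 (82147181 to 82205379, plus strand), encode the sensor and the transcription factor. All coordinates are whole genes on GRCm38.

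The stretches before the starts of 3 members are shown with matches to short promoter motifs, because these genes fall on different sides of the comparisons below. They are RefSeq sequence of GRCm38.p6, written on the gene's own strand, and capitals mark motifs found on either strand.
Hmgcs1: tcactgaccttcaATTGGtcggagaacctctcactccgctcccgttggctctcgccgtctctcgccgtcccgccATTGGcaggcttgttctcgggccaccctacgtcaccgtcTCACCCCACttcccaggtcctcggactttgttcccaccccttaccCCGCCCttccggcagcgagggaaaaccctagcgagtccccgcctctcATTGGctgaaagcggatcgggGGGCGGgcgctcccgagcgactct
Insig1: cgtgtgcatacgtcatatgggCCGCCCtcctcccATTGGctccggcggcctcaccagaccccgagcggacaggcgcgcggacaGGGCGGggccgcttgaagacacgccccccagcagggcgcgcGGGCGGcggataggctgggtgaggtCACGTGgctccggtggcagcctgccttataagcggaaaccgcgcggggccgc
Abca1: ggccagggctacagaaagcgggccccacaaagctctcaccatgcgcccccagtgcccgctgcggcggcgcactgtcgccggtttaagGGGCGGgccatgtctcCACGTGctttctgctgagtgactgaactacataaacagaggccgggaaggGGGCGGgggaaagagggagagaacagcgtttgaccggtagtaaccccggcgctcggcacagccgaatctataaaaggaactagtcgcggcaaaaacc
The Hmgcs1 stretch is chr13:119690101-119690350 and the Insig1 stretch chr5:28071162-28071362, both on the plus strand, and the Abca1 stretch is chr4:53159896-53160145 on the minus strand. The sterol motif searched for was TCACNCCAC, a form of the sterol response element bound by the Srebf2 protein. The CCAAT box was searched for by the letters in its name, the GC box as GGGCGG, and the E-box as its palindrome CACGTG; no match overlapped another. Hmgcs1 held the sterol motif, starting at position -137 from the RefSeq start, beside CCAAT boxes at -237, -176 and -45 and GC boxes at -92 and -24. Insig1 held no match to that form of the sterol motif in 201 bases, but a CCAAT box at -216, an E-box at -101 and 3 GC boxes. Abca1 held an E-box at -147 and GC boxes at -163 and -97. Over the 250 bases before the start, 1.05% of 32851 RefSeq mouse promoters held the sterol motif, 33.8% a CCAAT box, 32.7% a GC box and 6.02% an E-box. Over the 201 bases that match the Insig1 stretch these shares were 0.816%, 28.6%, 24.8% and 4.36%. An exact repeat of AGGTCA with 4 bases between, a form of the site bound by liver X receptors, stood in 0.0152% of all promoters. No match was found in the 6 members with an entry. These were searched only before the gene starts given above, which left fewer than 250 bases in some. An entry with no such bases was not searched. Inexact repeats were not searched for, so the stretches shown may still hold such a site. Sqle and Fdps are named only.

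The libraries held 7314 cells (KO), 8038 cells (control), 9109 and 10648 cells (Day14) and 1012 and 2530 cells (Day7), with totals of 20339933 to 62202828 unique molecular identifiers (UMIs). Depth per cell differed by table, with median UMIs of 7185.5 in KO, 6676.0 in control, 3399.0 and 3178.5 in Day14 and 17277.5 and 18233.5 in Day7. B cell genes (Cd79a, Cd79b and Ms4a1) summed to between 4076 and 5637 counts in every 1000000 counts (CPM) of each library, whereas 14 macrophage genes summed to 20.7 (KO), 25.3 (control), 23.5 and 22.3 (Day14), and 35.4 and 18.4 (Day7) CPM. Of the macrophage genes, Mertk was at 0 in the control, in Day14 replicate 2 and in Day7 replicate 1, where Axl was also at 0. Genes of stroma and follicular dendritic cells summed to at most 2.89 CPM. Day7 replicate 1 stood apart by its erythroid transcripts (haemoglobin genes at 639 CPM, against 213 CPM in replicate 2). Pairs of libraries shared between 1 and 135 cell barcodes, 90 of them between KO and control. The deleted gene could not be checked in B cells from wild-type marrow, which carry it intact: Il4ra stood at 63.1 CPM in KO and 54.0 CPM in control B cells.

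Levels by library are CPM of the counts summed over all its cells. Apoe was at 302 CPM in KO and 541.5 CPM in control cells, at 681 and 618 CPM in Day14, and at 539 and 315 CPM in Day7. The KO library was the lowest of the 4 libraries of day 14, and the Day7 pair spread nearly as widely as the chimaera pair. Abca1, a rarer transcript, was at 2.86 CPM in KO, 5.05 CPM in control, 16.9 and 12.1 CPM in Day14, and 4.23 and 4.20 CPM in Day7. Day14 was the highest group, with no overlap. Idi1 was at 45.6 (KO), 43.4 (control), 33.7 and 34.4 (Day14), and 65.3 and 74.0 (Day7) CPM. Fdps was at 149 (KO), 137 (control), 79.5 and 86.5 (Day14), and 144 and 170 (Day7) CPM. For both enzymes the Day14 libraries were the lowest of all 6. Sqle ran between 28.3 and 32.9 CPM in the 4 libraries of day 14 and reached 41.1 and 47.5 CPM in Day7; Hmgcs1 ran between 45.8 and 58.5 CPM at day 14 and was at 60.7 and 69.7 CPM in Day7. Srebf2 was at 86.9 (KO), 94.4 (control), 155 and 177 (Day14), and 121 and 129 (Day7) CPM, and Insig1 at 22.2 (KO), 23.9 (control), 38.2 and 41.5 (Day14), and 27.9 and 31.5 (Day7) CPM. Both regulatory genes were thus highest in Day14 and lowest in the chimaeras. These orders of groups are descriptions, because the groups also differ in depth and the share of all genes with such an order was not counted. Between Day14 and Day7 alone, 34.9% of 11995 genes were called higher in Day14 and 33.0% lower by the test described below.

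**Figure D1:**
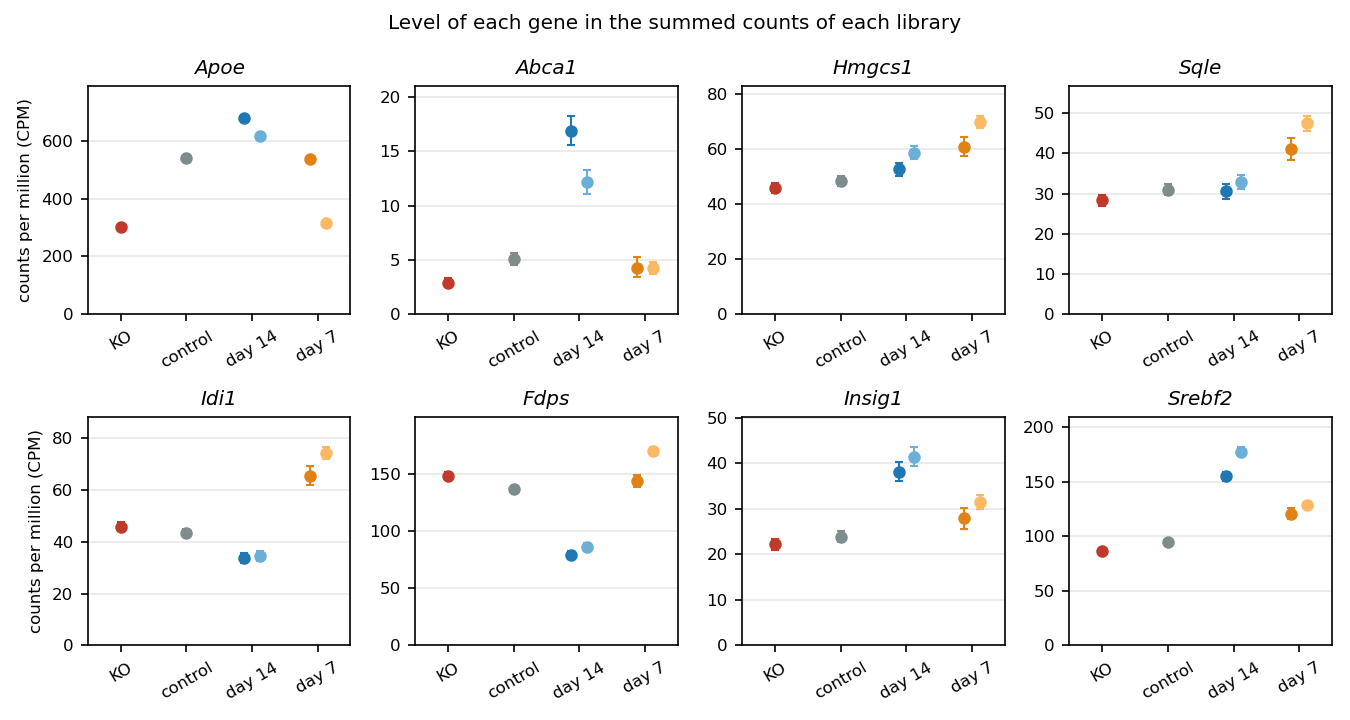
CPM of each of the 8 genes in the 6 libraries, 1 panel a gene, with a point for each library and bars for exact 95% Poisson intervals (counting error only). Apoe was at 302 CPM in KO against 541.5 CPM in control, and the Day14 points lay above the Day7 points for Abca1, Srebf2 and Insig1 and below them for Idi1, Fdps, Sqle and Hmgcs1.

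Day 14 was set against day 7 in wild-type mice to ask how these genes stood later in the reaction. The 4 synthesis enzymes were lower at Day14 and Abca1 was higher. By edgeR's quasi-likelihood test with Benjamini-Hochberg adjustment, 6 of 8 members passed, 2 higher and 4 lower, where 34.9% of 11995 genes were called higher and 33.0% lower. Idi1 fell by 1.21 ± 0.09 on the log2 scale (SE, adjusted p = 8.63e-05), Fdps by 1.10 ± 0.11 (adjusted p = 0.000227), Sqle by 0.66 ± 0.10 (adjusted p = 0.00157) and Hmgcs1 by 0.41 ± 0.10 (adjusted p = 0.0111). Abca1 rose by 1.60 ± 0.19 (adjusted p = 0.000532), and Srebf2 by 0.24 ± 0.09, close to the threshold (adjusted p = 0.0486). Apoe differed by 0.44 ± 0.22 (adjusted p = 0.127) and Insig1 by 0.24 ± 0.09 (adjusted p = 0.0638), neither past the test. The Apoe value turned on Day7 replicate 1: without that library it was 0.79 (adjusted p = 5.28e-05), and without replicate 2 it was 0.11 (adjusted p = 0.172). Replicate 1 also had the higher sum of macrophage genes (35.4 CPM, against 18.4 CPM in replicate 2), whose part in the Apoe value was not tested. Without plasma-like clusters Apoe was 0.87 and passed (adjusted p = 0.0121). Scaling by library totals alone moved the median of all genes to 0.23, against 0.04 with trimmed-mean (TMM) factors; on that scale Hmgcs1 (-0.22) was no longer called and Insig1 (0.43) was.

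The age of the reaction, the sort gate, the sequencing depth and the construction of the tables cannot be told apart between these days. Cells of both days overlapped in depth only from 7290 to 9998 UMIs, a range that held 979 and 1038 Day14 cells and 143 and 151 Day7 cells, from the top of the Day14 distribution and the bottom of the Day7 distribution. In this range 3 members passed: Apoe at -0.64, Idi1 at 0.65 and Insig1 at 0.85. Each of the 4 enzymes, Abca1 and Apoe then had the opposite sign from the values over all cells. Whether depth, phase makeup or both turned the signs in this range was not tested. The comparison of days was also fitted among cells called G1 only, but over all depths rather than in this range. Whether replicate libraries came from different mice is not in the labels, so p-values throughout measure only the spread between these libraries, which may be technical.

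By cluster, Apoe was highest in the plasma-like cells, the antibody-secreting end of the reaction, which carried all 9 markers of that class in each table. Levels by cluster are a description, because the clusters were drawn on these same cells, and they are CPM of a total without immunoglobulin counts. Plasma-like Apoe was at 1566 CPM in KO and 2546 CPM in control, at 5432 and 3523 CPM in Day14, and at 3971 and 2947 CPM in Day7. It was the highest cluster in each of the 6 libraries, although that of Day7 replicate 1 held only 49 cells. In Day14 the order below it was cluster 1 (975 and 1046 CPM), cluster 8 (1114 and 721), cluster 2 (708 and 684), cluster 3 (630 and 602), dark-zone-like cluster 0 (539 and 509), the memory-precursor-like cluster (517 and 373), dark-zone-like cluster 4 (464 and 409) and the MYC-high-like cluster (330 and 271). Clusters 1 and 8 changed places between the libraries, as did the memory-precursor-like cluster and dark-zone-like cluster 4, so the order of these neighbours did not hold in both. Dark-zone-like cluster 0 was above the memory-precursor-like cluster within each library, although their values overlapped across libraries. Cluster 7 (107 CPM, 321 cells) occurred in replicate 2 alone. In the chimaeras the light-zone-like cluster followed the plasma-like one, at 478 CPM in KO and 850 CPM in control, and the MYC-high-like cluster was lowest, at 133 CPM in KO and 227 CPM in control.

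Apoe was unevenly spread over the plasma-like cells. Cells above 2000 Apoe CPM, a line drawn after the values were seen, were 28 of 136 plasma-like cells in KO and 88 of 288 in control, 40 of 72 and 34 of 71 in Day14, and 23 of 49 and 38 of 101 in Day7. The top 10% of plasma-like cells held between 46.3% and 62.4% of that cluster's Apoe counts. Macrophages also make Apoe in quantity; the C1q and Csf1r transcripts that mark them were present in 0 to 2 of these high cells per library. Over all plasma-like cells C1qa, C1qb and C1qc summed to 3.51 CPM in KO and 3.92 CPM in control, 20.6 and 8.62 CPM in Day14, and 2.16 and 0 CPM in Day7. This was the highest sum of any cluster in each library but Day7 replicate 2, and in Day14 4 of 14 macrophage genes were more than 0.5 (log2) above other cells; the part of macrophage RNA in the plasma-like Apoe was not tested. With each cell thinned to 2000 UMIs, Apoe was detected in 42.5% of plasma-like cells in KO and 47.2% in control, in 83.3% and 75.9% in Day14, and in 75.5% and 61.4% in Day7. In MYC-high-like cells it was detected in 18.3% in KO and 27.2% in control, in 33.2% and 32.2% in Day14, and in 38.2% and 14.6% in Day7. The light-zone-like cells of the chimaeras exceeded the plasma-like share, at 44.6% in KO and 63.8% in control. Clusters 1 (57.1%) and 4 (49.9%) of control did so too. Without thinning, the plasma-like shares were 58.1% in KO and 61.1% in control, at median depths of 10108.5 and 12357.0 UMIs. No cluster of another cell type was present to show how many UMIs free RNA gives, and its part in the low shares was not tested.

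Abca1 followed another order. It was highest in the light-zone-like cluster of the chimaeras (7.41 CPM in KO and 12.4 CPM in control) and in Day7 cluster 3 (9.97 and 10.7 CPM). That Day7 cluster had 8 of 9 memory precursor markers and 4 of 4 erythroid genes more than 0.5 (log2) above other cells. In Day14 Abca1 was high in cluster 1 (34.1 and 27.1 CPM), cluster 3 (34.3 and 25.5 CPM) and the memory-precursor-like cluster (28.8 and 21.8 CPM), and uneven between the libraries in cluster 8 (37.1 and 16.5 CPM). In the MYC-high-like clusters it stood at 0.81 CPM in KO and 1.69 CPM in control, at 1.56 and 3.07 CPM in Day14, and at 1.06 and 1.80 CPM in Day7. MYC marks germinal centre B cells that have just been selected to grow; the clusters named for it also had light zone markers above other cells (4 of 8 in the chimaeras, 6 of 8 in Day14 and 5 of 8 in Day7). The MYC-high-like clusters had the highest Idi1 of each chimaera and Day7 library and, after cluster 8, of each Day14 library. Idi1 there was at 74.9 CPM in KO and 69.1 CPM in control, 65.6 and 65.8 CPM in Day14, and 106 and 108 CPM in Day7. Their Fdps was at 203 CPM in KO and 180.1 CPM in control, 115 and 118 CPM in Day14, and 207 and 211 CPM in Day7. The memory-precursor-like cells of the chimaeras were lowest for 3 of the 4 synthesis enzymes: Fdps was at 91.2 CPM in KO and 81.2 CPM in control, Idi1 at 27.9 CPM in KO and 28.8 CPM in control, and Sqle at 19.1 CPM in KO and 21.0 CPM in control. Hmgcs1 was lowest in the plasma-like cells, at 24.9 CPM in KO and 22.0 CPM in control, below the memory-precursor-like cells at 32.4 CPM in KO and 38.3 CPM in control. Day14 cluster 8, a group of 105 and 93 cells led by Slpi and endoplasmic reticulum genes, held the highest Sqle (134 and 140.1 CPM), Hmgcs1 (104 and 128 CPM) and Srebf2 (357 and 420.2 CPM) of any Day14 cluster in both libraries.

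**Figure D2:**
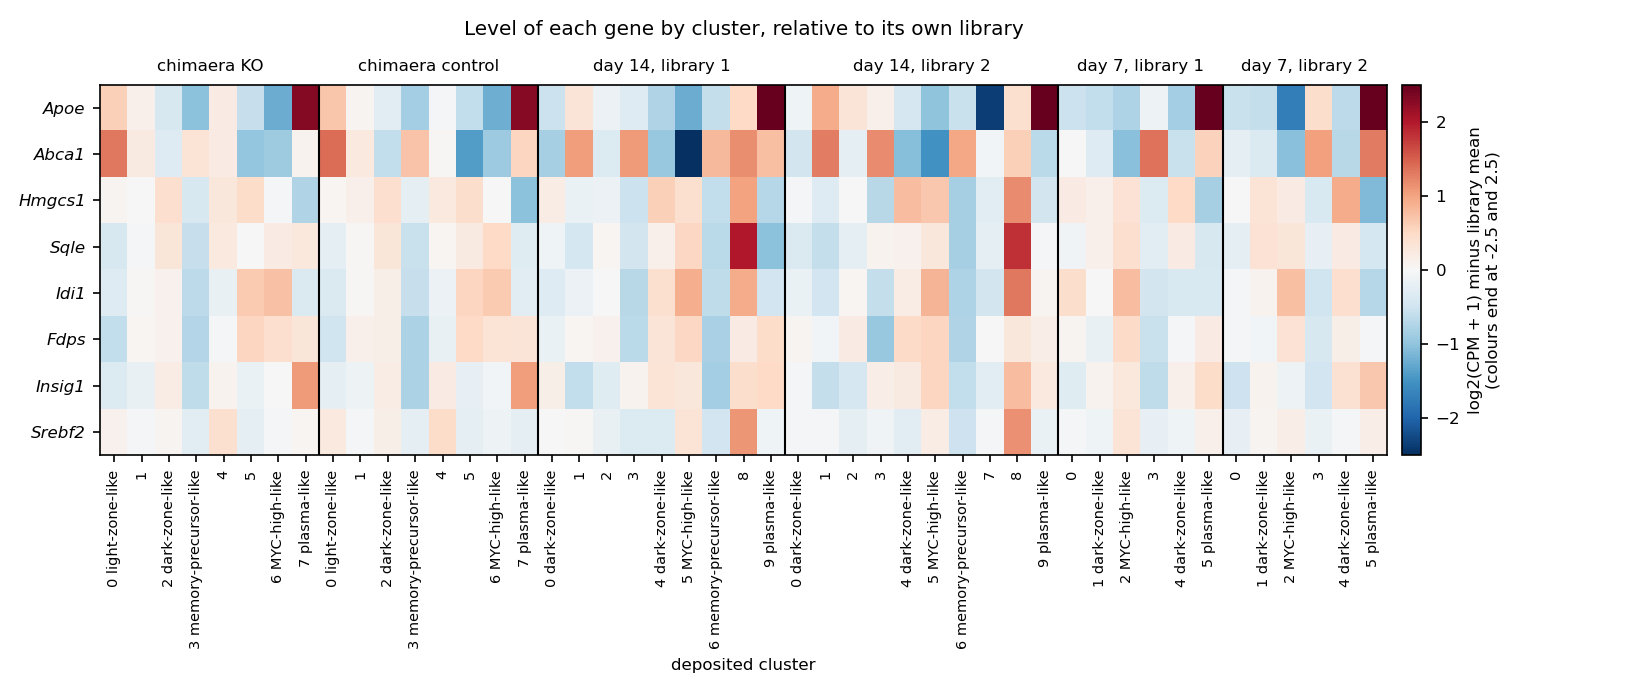
Colours give log2(CPM + 1), without immunoglobulin counts and minus the library mean, for the 8 genes (down the page) in each cluster of at least 40 cells of each library (across); colours end at -2.5 and 2.5. Apoe is high in the plasma-like units (1566 CPM in KO and 2546 CPM in control), and the memory-precursor-like units are low for Fdps, Idi1 and Sqle.

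Across 46 units, each a cluster of at least 50 cells in 1 library, with log2(CPM + 1) centred within each library, Pearson's r was positive between each pair of the 4 synthesis enzymes and negative between each of them and Abca1, to differing degrees. Among the enzymes it ran from 0.45 (Sqle and Fdps) and 0.46 (Hmgcs1 and Fdps) to 0.76 (Hmgcs1 and Idi1) and 0.77 (Sqle and Idi1). With Abca1 it was -0.67 for Fdps, -0.63 for Idi1, -0.50 for Hmgcs1 and -0.30 for Sqle. Srebf2 had r = 0.77 with Sqle and 0.29 with Fdps. Apoe and Abca1 had r = 0.47 over all units and 0.62 over the 41 units that were not plasma-like. Apoe had r = 0.41 with Insig1 and -0.46 with Hmgcs1 over all units, but -0.05 and -0.02 over those 41. Among 5479 genes, the profiles closest to that of Apoe were Atp6v0a1 (r = 0.92), Pon3 (0.86), Trabd (0.86), Ell2 (0.86) and Fam214a (0.85). Closest profiles were taken over all 46 units, plasma-like units included, and were not taken again without them. The closest to Abca1 were Gtpbp2 (0.85), Cyp4f18 (0.85), Rnf167 (0.84), Man2b1 (0.82) and Adcy7 (0.82). The closest to the mean of the 4 enzymes were Srsf7 (0.88), Psat1 (0.87), Cyp51 (0.86), Acsl3 (0.85) and Msmo1 (0.85); Cyp51 and Msmo1 are themselves enzymes of cholesterol synthesis. The units share libraries, depth and cell cycle makeup, so these correlations are descriptions.

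The deposited cell cycle calls were compared within libraries to ask how the genes followed division. Apoe and Abca1 fell outside G1; Idi1, Fdps, Sqle and Insig1 rose in both S and G2M, and Hmgcs1 in G2M. Apoe in G1, S and G2M cells was at 396, 282 and 242 CPM in KO, 713, 479 and 410.5 CPM in control, 922, 612 and 501 CPM and then 843, 579 and 451 CPM in the Day14 libraries, and 906, 347 and 307 CPM and then 536, 205 and 229.6 CPM in the Day7 libraries. G1 cells were highest in all 6 libraries. Hmgcs1 in G1, S and G2M cells was at 38.6, 37.6 and 59.4 CPM in KO, 43.2, 41.4 and 61.4 CPM in control, 45.9, 44.8 and 65.9 CPM and then 49.9, 53.3 and 71.0 CPM in Day14, and 49.7, 57.2 and 75.8 CPM and then 56.9, 55.8 and 90.2 CPM in Day7. It was highest in G2M in every library, with S close to G1.

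In S against G1 cells, 7 of 8 members passed, 4 higher and 3 lower, where 30.1% of 10964 genes were called higher in S and 35.0% lower. Idi1 rose by 0.61 ± 0.06 (adjusted p = 2.29e-08), Fdps by 0.39 ± 0.04 (adjusted p = 1.55e-07), Sqle by 0.36 ± 0.05 (adjusted p = 4.63e-06) and Insig1 by 0.30 ± 0.06 (adjusted p = 0.000307), each in 6 of 6 libraries. Apoe fell by 0.79 ± 0.10 (adjusted p = 1.37e-06), Abca1 by 1.30 ± 0.10 (adjusted p = 2.94e-09) and Srebf2 by 0.08 ± 0.03 (adjusted p = 0.0336), also in 6 of 6 libraries. The Srebf2 difference had the opposite sign, at 0.02, when cells rather than counts were weighted alike. Hmgcs1 differed by 0.05 ± 0.04 and did not pass (adjusted p = 0.324). Of the enzymes, then, Idi1, Fdps and Sqle were already higher in S, whereas Hmgcs1 was not called there.

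In G2M against G1 cells all 8 members passed, 6 higher and 2 lower, where 29.4% of genes were called higher in G2M and 32.4% lower. Hmgcs1 rose by 0.63 ± 0.04 (adjusted p = 3.91e-10), Insig1 by 0.62 ± 0.06 (adjusted p = 5.48e-08), Sqle by 0.57 ± 0.05 (adjusted p = 7.48e-09), Idi1 by 0.44 ± 0.06 (adjusted p = 1.78e-06) and Fdps by 0.33 ± 0.04 (adjusted p = 1.47e-06), each in 6 of 6 libraries. Srebf2 rose by 0.10 ± 0.03 (adjusted p = 0.0129) but in only 3 of 6 libraries, and at 0.04 it was not called on library totals without TMM factors. Apoe fell by 0.96 ± 0.10 (adjusted p = 1.06e-07) and Abca1 by 1.51 ± 0.10 (adjusted p = 4.08e-10), in 6 of 6 libraries. The Apoe call held within each zone: the log2 difference of S against G1 was -0.29 among DZ cells (adjusted p = 1.88e-05) and -1.07 among LZ cells (adjusted p = 1.05e-07). Cells in division were deeper, with a median of 8779 UMIs in G2M against 5121.5 UMIs in G1 in KO, and the part of depth was not tested. Plasma-like cells, the highest in Apoe, were kept in the phase comparisons. In control 2398 LZ cells were called G1, and 2222 were left without plasma-like clusters. The part of plasma-like cells in the Apoe differences between phases was not tested.

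**Figure D3:**
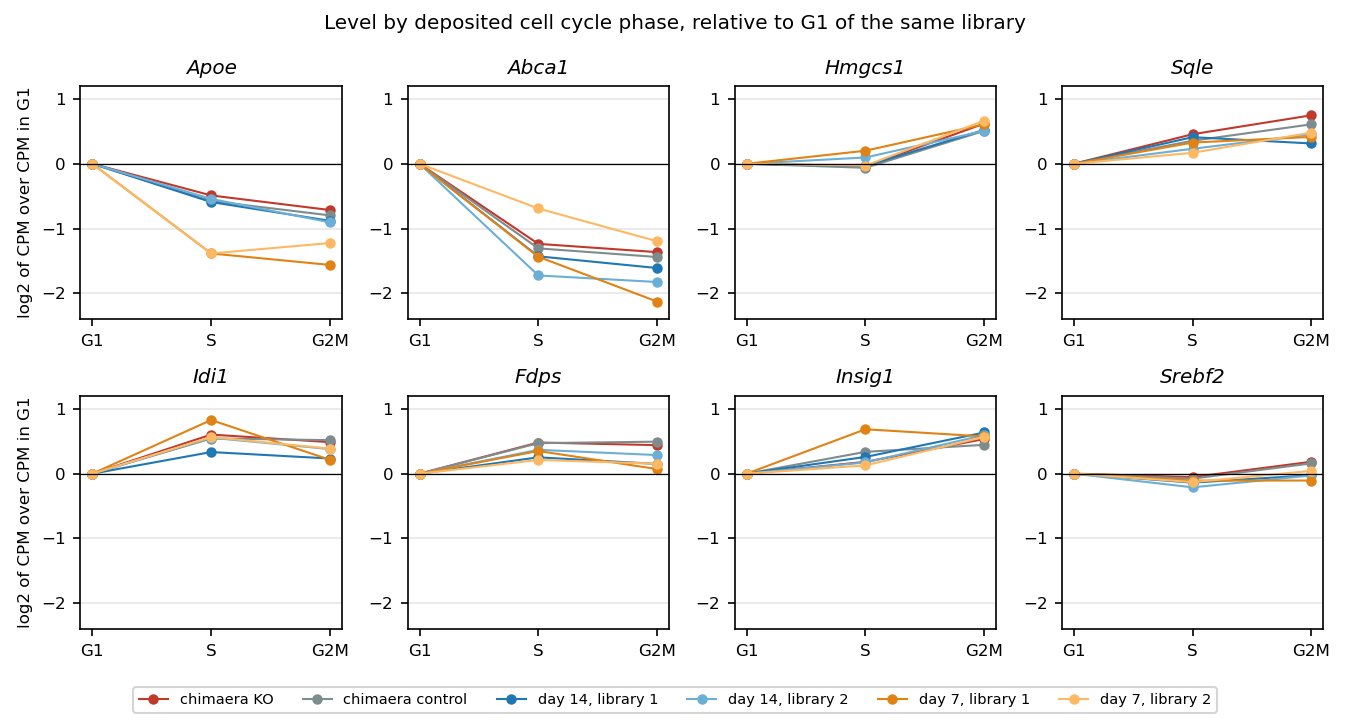
Log2 of CPM in G1, S and G2M cells (x axis) over CPM in G1 cells of the same library, 1 panel a gene, with a line for each of the 6 libraries. Apoe and Abca1 lie below 0 in 6 of 6 libraries in both S and G2M, and Hmgcs1 lies above 0 in G2M in 6 of 6 libraries.

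LZ cells were set against DZ cells of the same library to ask whether the zones differed. Apoe and Abca1 were higher in LZ, and Hmgcs1, Fdps, Sqle and Insig1 were called slightly lower, Fdps and Sqle not in every library. Apoe was at 329 CPM in LZ and 282 CPM in DZ cells of KO, at 638 and 461 CPM in LZ and DZ of control, at 884 and 579 CPM, and 762 and 547 CPM, in LZ and DZ of the Day14 libraries, and at 911 and 327 CPM, and 447 and 243 CPM, in LZ and DZ of the Day7 libraries. Abca1 was at 4.32 CPM in LZ and 2.12 CPM in DZ of KO, and at 7.03 CPM in LZ and 3.58 CPM in DZ of control. LZ was higher in 6 of 6 libraries for both genes, and 7 of 8 members passed, 3 higher and 4 lower, where 31.3% of 10862 genes were called higher in LZ and 29.3% lower. Abca1 rose by 0.98 ± 0.08 (adjusted p = 9.81e-07), Apoe by 0.65 ± 0.12 (adjusted p = 0.000495) and Srebf2 by 0.11 ± 0.05 (adjusted p = 0.0498, higher in 4 of 6 libraries). Hmgcs1 fell by 0.25 ± 0.04 (adjusted p = 0.000241) and Insig1 by 0.13 ± 0.04 (adjusted p = 0.0195), each lower in 6 of 6 libraries. Fdps fell by 0.16 ± 0.04 (adjusted p = 0.00714) and Sqle by 0.14 ± 0.04 (adjusted p = 0.0154), each lower in 4 of 6 libraries. By CPM the log2 difference of Sqle was -0.32 in KO and -0.27 in control, but 0.12 and 0.02 in Day14. That of Fdps was -0.36 in KO and -0.24 in control, but 0.03 and -0.02 in Day7. Idi1 differed by -0.10 ± 0.04 (adjusted p = 0.0708). On library totals without TMM factors Fdps (-0.11), Sqle (-0.10) and Insig1 (-0.08) were no longer called.

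Zone and phase overlapped strongly, since G2M cells made up only 58 of the 2650 LZ cells in KO and 61 of 3176 in control, and phase was therefore held fixed. Among cells called S, 6 of 8 members were called higher in LZ, where 18.9% of 9703 genes were: Srebf2 by 0.27 (adjusted p = 0.000162), Idi1 by 0.25, Sqle by 0.20 (adjusted p = 0.00896), Insig1 by 0.19 (adjusted p = 0.0312), Hmgcs1 by 0.19 and Fdps by 0.14. Srebf2, Sqle, Idi1 and Insig1 had this direction in 6 of 6 libraries. Idi1 in S cells, for example, was at 54.9 CPM in LZ and 52.2 CPM in DZ of KO, 52.6 and 48.8 CPM in LZ and DZ of control, 46.6 and 33.9 CPM, and 50.4 and 36.5 CPM, in LZ and DZ of Day14, and 117.5 and 80.1 CPM, and 97.1 and 80.0 CPM, in LZ and DZ of Day7. Among G1 cells, 5 of 8 members were called higher in LZ, where 20.8% of 9582 genes were: Apoe by 0.55, Abca1 by 0.48, Insig1 by 0.41, Sqle by 0.30 and Srebf2 by 0.25; Fdps was lower, at -0.16. Over all cells, then, LZ was lower for Hmgcs1, Sqle and Insig1, and within G1 and within S it was not; Fdps was lower in LZ within G1 and higher within S. Apoe went the other way in S cells, lower in LZ by 0.25 on the log2 scale (-0.25, adjusted p = 0.00982) and in 5 of 6 libraries; in Day7 replicate 1 it was higher in LZ, by 0.43.

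**Figure D4:**
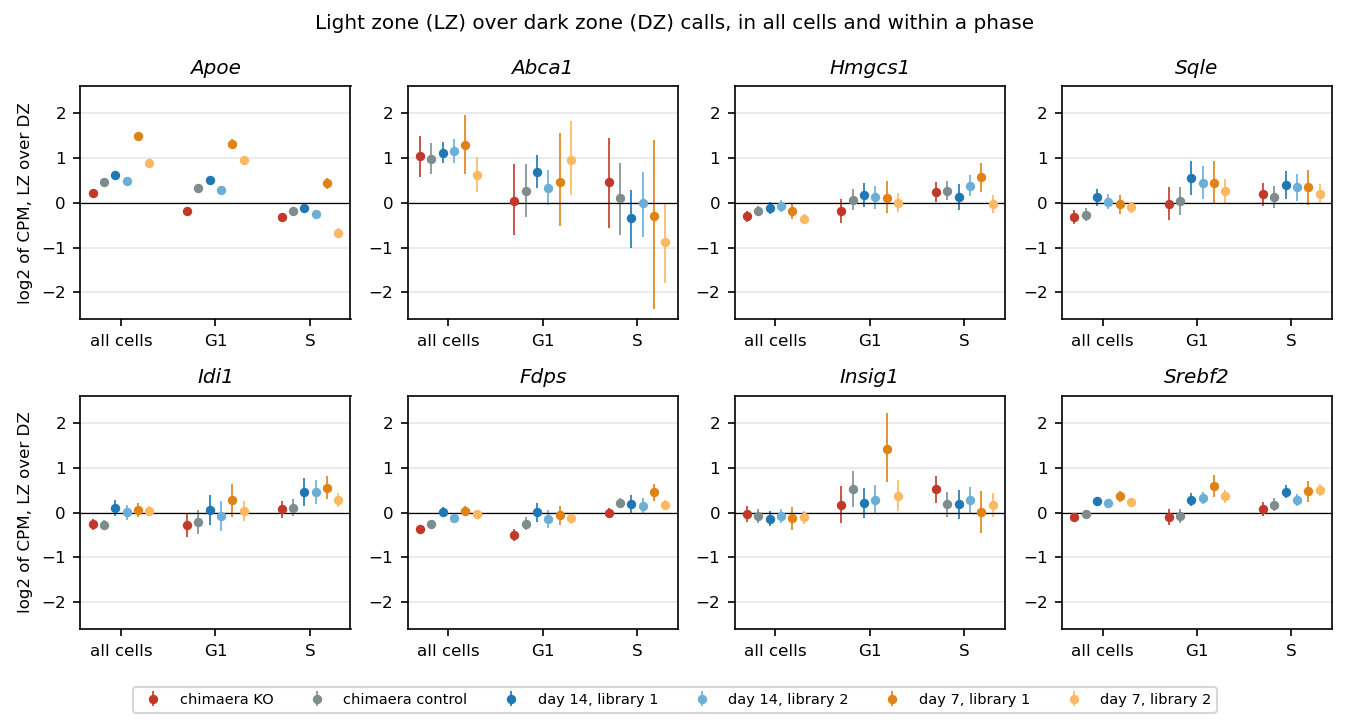
Log2 difference of LZ over DZ cells for each gene, for all cells and for cells called G1 or S, with a point for each of the 6 libraries and bars for exact 95% intervals (counting error only). Hmgcs1 lies below 0 in 6 of 6 libraries over all cells, and Sqle, Idi1, Insig1 and Srebf2 lie above 0 in 6 of 6 libraries among S cells.

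Plasma-like cells touched the Apoe result. They made up 1.86% of KO and 3.58% of control cells, 0.79% and 0.67% of Day14 cells and 4.84% and 3.99% of Day7 cells, and most of them were called LZ (64.7% in KO, 72.6% in control). Without them the LZ difference of Apoe was 0.26 (adjusted p = 0.003), and among G1 cells it was 0.12 and did not pass (adjusted p = 0.144). The LZ difference itself was smaller at Day14 than at Day7, by a log2 value of -0.66 ± 0.11 (adjusted p = 0.00137), a comparison in which 2.38% of 11492 genes were called and no other member was. Without plasma-like clusters that difference was -0.11 (adjusted p = 0.644). Without Day14 replicate 2 it was -0.59 and did not pass (adjusted p = 0.151).

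KO cells were set against control cells to ask what the sequenced wild-type B cells did in hosts open to loss of Il4ra in Ccl19-expressing cells. Apoe and Abca1 were lower in KO, and the other 6 genes lay between -0.13 and 0.12 on the log2 scale. With 1 library in each group there is no test, and intervals cover counting error only. Apoe had 18023 counts in KO and 33683 in control, a log2 ratio of -0.84 (95% interval -0.87 to -0.82), against 0.14 between the Day14 libraries and 0.77 between the Day7 libraries. Macrophage genes summed to 20.7 CPM in KO and 25.3 CPM in control, and their part in the Apoe ratio was not tested. It met the size rule (20 CPM or more in KO or control, a log2 ratio 0.5 or more from 0 with an interval that leaves 0 out, and a larger difference than in the Day14 pair), as did 1.42% of 5065 genes. Abca1 had 171 counts in KO and 314 in control, a log2 ratio of -0.82 (-1.09 to -0.54), and was too low in CPM for the rule. Replicate libraries had Abca1 at 16.9 and 12.1 CPM in Day14 and at 4.23 and 4.20 CPM in Day7. Fdps was at 0.12 (0.07 to 0.16), Idi1 at 0.07, Hmgcs1 at -0.08, Insig1 at -0.11, Srebf2 at -0.12 and Sqle at -0.13. None of these 6 reached an absolute log2 ratio of 0.5.

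The lower Apoe was present in each deposited cluster. In 8 of 8 clusters the whole interval lay below 0, as it did for 0.336% of 5065 genes. Apoe was at 154 CPM in KO and 288 CPM in control in the memory-precursor-like cluster (-0.90), at 238 and 429 CPM in KO and control in the dark-zone-like cluster (-0.85), and at 473 and 840 CPM in KO and control in the light-zone-like cluster (-0.83). The ratio nearest to 0 was in cluster 4, at 361 CPM in KO and 505 CPM in control (-0.48). The plasma-like cluster was at 1281 CPM in KO and 1956 CPM in control (-0.61), here with immunoglobulin counts in the total, which affect this value. By zone the log2 ratio was -0.96 in LZ and -0.71 in DZ, and by phase it was -0.85 in G1, -0.76 in S and -0.76 in G2M. Abca1 ratios ran from -1.19 to -0.33 over the clusters. The interval left 0 out in the light-zone-like cluster (59 counts in KO and 98 in control), cluster 1 (39 and 63) and the memory-precursor-like cluster (29 and 80). Between replicates, Abca1 ratios (replicate 1 over replicate 2) ran from -0.98 to 2.01 over 9 Day14 clusters. Over 6 Day7 clusters they ran from -1.28 to -0.10. The KO over control ratios of the other 6 genes over the clusters were -0.01 to 0.24 for Fdps and -0.04 to 0.16 for Idi1. They were -0.24 to 0.27 for Hmgcs1, -0.40 to 0.58 for Sqle, -0.21 to 0.09 for Insig1 and -0.24 to 0.27 for Srebf2. The whole interval lay above 0 in 4 of 8 clusters for Fdps. It lay below 0 in 4 clusters for Srebf2 and in 2 each for Hmgcs1 and Sqle. For Idi1 and Insig1 it left 0 out in 0 of 8 clusters.

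Thinned to 2000 UMIs a cell, 35.1% of KO cells (exact 95% interval 33.9% to 36.2%, 7055 cells) and 48.0% of control cells (46.8% to 49.1%, 7648 cells) had an Apoe UMI; 259 KO and 390 control cells were too shallow to thin, and without thinning the shares were 59.4% and 71.3% in KO and control. The Apoe log2 ratio was -0.73 without plasma-like cells and -0.75 when each cluster was given the same share of cells in KO and control. A replicate pair could also differ in 1 direction throughout: Day7 replicate 1 over replicate 2 gave Apoe ratios of 0.08 to 1.64 over 6 clusters, the largest in the MYC-high-like cells (315 and 101 CPM in replicates 1 and 2), whereas the Day14 pair gave -0.10 to 0.63 over 9 clusters. In that Day7 pair 1.81% of 5697 genes had intervals on 1 side of 0 in all 6 clusters (86 genes above and 17 below). In the Day14 pair 0.261% of 6136 genes did so in all 9 (4 above and 12 below). Both shares count the 2 directions together, whereas the 0.336% for KO over control counts only genes below 0. Host genotype cannot be told apart from any other difference between the KO and control libraries, and a smaller number of Apoe-rich cells cannot be told apart from less Apoe per cell wherever a cluster mixes them.

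**Figure D5:**
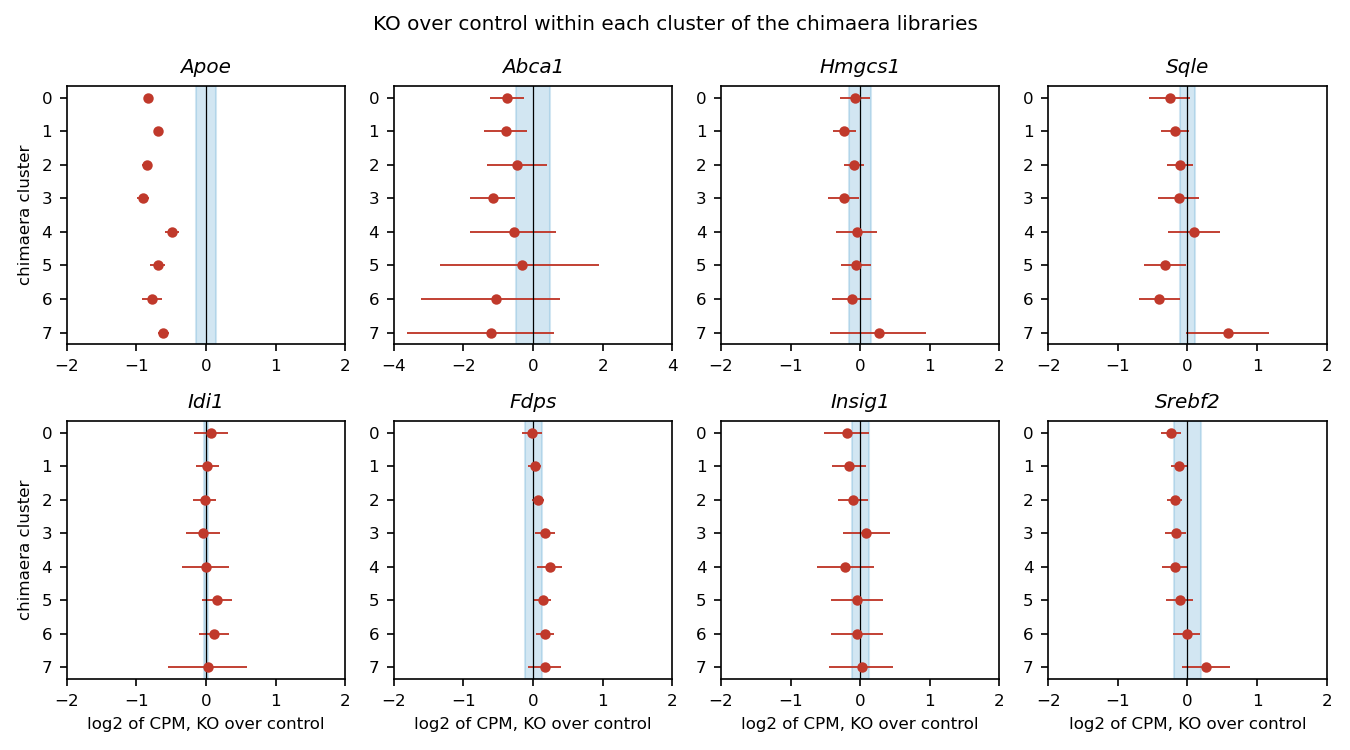
Log2 ratio of KO over control for the 8 genes in each of the 8 chimaera clusters, with exact 95% intervals (counting error only, 1 library per group) and clusters down the page by number; blue bands span the size of the log2 ratio between the Day14 libraries on both sides of 0, and Abca1 has a wider axis. Apoe lies below 0 in 8 of 8 clusters, between -0.90 and -0.48, while Hmgcs1, Idi1 and Insig1 lie on both sides of 0.

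Beyond the 8 genes, 51 other genes of the pathway were followed in 5 groups: synthesis (17 genes), sterol sensing (5), uptake and intracellular transport (12), efflux, liver X receptor and storage (12) and oxysterols (5). In G2M against G1, 12 of 17 synthesis genes rose and 2 fell, with a median log2 difference of 0.28 beside -0.03 over all genes, of which 29.4% were called higher and 32.4% lower; Hsd17b7 (0.70), a reductase late in the pathway, rose by the largest value among them, and Ggps1, which leads to geranylgeranyl rather than sterols, fell by 0.49. Lrp8 (0.66), a receptor gene of lipoprotein uptake, rose as well, and 4 of 8 measured efflux genes fell with none higher, led by the sterol exporter Abcg1 (-2.13). Of 9 measured uptake genes 3 rose and 5 fell, and of 5 sensing genes 2 rose and 3 fell. Gpr183, the receptor for oxysterols that guides B cells (-1.69), and Npc2, the lysosomal cholesterol carrier (-0.80), also fell. In S against G1, where 30.1% of all genes were called higher and 35.0% lower, 8 of 17 synthesis genes rose and 1 fell (median 0.11 beside -0.04), 3 of 9 uptake genes rose and 5 fell, and 5 of 8 efflux genes fell with none higher. The largest increases were in Lrp8 (1.71), Scarb1 (0.87), the receptor for high-density lipoprotein, and Acat2 (0.60), the thiolase that opens the pathway. The largest decreases were in Abcg1 (-1.91), Gpr183 (-1.44) and Mylip (-0.84), the ligase that degrades lipoprotein receptors.

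In LZ against DZ, where 31.3% of all genes were called higher and 29.3% lower, 5 of 9 measured efflux genes rose with none lower (median 0.33 beside 0.01). Of the 17 synthesis genes 3 rose and 6 fell (median -0.04), a share lower that is near that of all genes. Of 9 uptake genes 5 rose and 3 fell, and of 5 sensing genes 2 rose and 2 fell. Abcg1 (2.10), Gpr183 (1.80) and Npc2 (0.77) rose most, and Lrp8 (-0.64), Hsd17b7 (-0.43) and Mvk (-0.42), the mevalonate kinase, fell most. Between days, 11 of 17 synthesis genes were lower at Day14 and 2 were higher (median -0.30 beside 0.04, with 33.0% of all genes called lower and 34.9% higher), led by Ebp (-1.49), Acat2 (-1.43) and Fdft1 (-1.01), whereas the largest increases were in the transporter genes Abca7 (2.04) and Abcg1 (2.02) and in Cyp27a1 (1.94), which makes an oxysterol. Not all synthesis genes moved between days: Mvk differed by 0.07, not past the test. In the overlapping UMI range Abcg1, Day14 over Day7, was at -0.9995. In the comparison of the zone difference between days, 0 of 43 measured list genes were called. In KO against control, 17 list genes reached 20 CPM and 1 of them met the size rule: Gpr183 was at 28.5 CPM in KO and 19.2 CPM in control, a log2 ratio of 0.57 (0.46 to 0.68).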

How the data were processed

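Germinal centre B cells of 6 libraries were profiled by 10x 5′ single-cell RNA sequencing. The authors deposited UMI counts per gene and cell in 3 tables, unnormalised, with a library, phase, zone and cluster call for each cell, taken here as deposited; how the calls were made is not stated in the sources used here. Cell Ranger, Seurat and the mm10 genome are named without versions, per the submitters' processing notes. Groups followed the labels, and 1 other column of per-cell values was not used. All deposited cells were kept. No doublet caller was run, and an alternative removed the 5% of cells with the most UMIs in each library. Counts were summed per library and call. Zone, phase and day were tested with edgeR 4.0.16 (quasi-likelihood, TMM factors, filterByExpr, Benjamini-Hochberg adjusted p under 0.05, R 4.3.3), with library as a block for zone and phase, over all genes listed in the tables compared; immunoglobulin genes are not in all tables. DESeq2 1.42.0 and limma 3.58.1 (mean per cell of log2 of counts per 10000 plus 1) served as alternatives, with leave-one-out fits, thresholds and cell subsets. The fits were tested on simulated data. For KO over control, with 1 library each, CPM carry exact Poisson and log2 ratios exact binomial 95% intervals; shares carry exact Clopper-Pearson intervals. UMI counting limits PCR duplicates, but intervals cover counting error only. A cluster was called "-like" after the state (light zone, dark zone, MYC-high, memory precursor or plasma) with the largest share of its markers more than 0.5 (log2) above other cells, if these were at least 5. There were 2 exceptions that kept their number. Day7 cluster 3, led by erythroid genes, had 8 of 9 memory precursor markers that high. Day14 cluster 8, led by plasma genes, had 5 of 8 light zone and 5 of 9 plasma markers that high. The rest keep their number. Names were given with these values known. Named were the 8 members, the 3 list genes per direction with the largest called change, and the 5 closest profiles; Ggps1, Mvk and Il4ra were named beyond this after their values were seen. Single values of some pathway and marker genes are not reported here. The members, lists and tests were chosen with earlier results of these data known.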

Additional observations from a re-analysis of the deposited data

Results flagged for a closer look

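The zone difference of Apoe (LZ over DZ) differed between days, by a log2 value of -0.66 (Day14 minus Day7; interaction term of edgeR's quasi-likelihood test, adjusted p = 0.00137, 2 libraries per day). LZ was higher in all 4 libraries. Without plasma-like clusters the difference was -0.11 (adjusted p = 0.644), and by DESeq2 it was -0.63 (adjusted p = 0.712). It was -0.32 without Day7 replicate 1 and -0.91 without Day7 replicate 2.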

How the results depend on the processing

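Of 156 alternative values of counts of called genes, 132 stayed within 1.5 times the reported value and 24 moved. Members called in LZ over DZ were 7 and fell to 4 on library totals, 3 among G2M cells (4 to 102 LZ cells a library) and 0 with no replicate block; the list count was 27, with 16, 17 and 5 among G2M cells, among G1 cells without plasma-like clusters and with no replicate block. With no replicate block, members called were 0 of 7 in S over G1 and 5 of 8 in G2M over G1, and list genes 11 and 11; list genes in G2M over G1 among LZ cells were 17. For Day14 over Day7 the list count was 30, with 19 in the shared UMI range, 15 under 5% mitochondrial counts and 19 to 29 when a library was left out; 3 members were called in the shared range, against 6 over all cells, and Idi1, with the opposite sign, was the only one called in both. For the zone difference between days, members called were 0 without plasma-like clusters and by DESeq2 and 0 to 2 when a library was left out, and list genes 0 to 6. In KO over control, members past the size rule were 2 at 5 CPM and 0 at an absolute log2 ratio of 1, where list genes were also 0.

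Signs turned in 40 gene values. LZ over DZ gave Apoe -0.25 in S and -0.49 in G2M, Abca1 -0.24 and -0.14, Idi1 0.25 and 0.60, and Fdps 0.14 and 0.11 in the same phases. In G1, S, G2M and G1 without plasma-like clusters it gave Hmgcs1 0.073, 0.19, 0.24 and 0.11, Sqle 0.30, 0.20, 0.24 and 0.33, and Insig1 0.41, 0.19, 0.70 and 0.34. Srebf2 in S over G1 was 0.019 with cells weighted alike and 0.0062 among LZ cells. Day14 over Day7 in the shared UMI range gave Apoe -0.64, Abca1 -0.83, Hmgcs1 0.30, Sqle 0.053, Idi1 0.65 and Fdps 0.041, and Abcg1, Day14 over Day7, was -0.9995; with cells weighted alike it gave Insig1 -0.041 and Srebf2 -0.13. The uncalled zone differences between days ran, over the libraries left out, from -0.12 to 0.52 for Abca1, -0.088 to 0.021 for Idi1, -0.049 to 0.049 for Insig1 and -0.11 to 0.025 for Srebf2; Insig1 was 0.052 without plasma-like clusters and 0.012 by DESeq2. The causes were not tested, beyond the smaller number of cells in each subset.

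Sample numbers in Day14 and Day7 are not said to pair libraries. Deviations of same-numbered libraries from the mean of their day correlated at 0.18 over 11995 genes. With 2 libraries a day, crossed numbers give the same value with the opposite sign. With number as a replicate block Apoe was 0.48 (adjusted p = 0.00935) and Insig1 0.24 (adjusted p = 0.0223). Without TMM factors, higher calls were 62.4% of all Day14 over Day7 calls, against 51.4% with them, and 37.2% against 47.6% in G2M over G1. A left-out library of a pair leaves a lone library, assumed to vary like the other group. Abca1, at 171 to 314 counts in the chimaeras, is limited by depth.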

Other observations

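Apoe counts were concentrated in few cells in other clusters too. In the light-zone-like chimaera cluster the 10% of cells with the most Apoe held 48.5% of its counts in KO and 42.2% in control, and cells above 2000 CPM were 4.57% of KO and 9.93% of control cells there. The median cell of that cluster had 238 Apoe CPM in KO and 553 CPM in control. The median plasma-like cell had 157 CPM in KO and 322 CPM in control.

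Cells without a zone call, 360 in KO and 643 in control, had Apoe at 442 CPM in KO and 775 CPM in control (log2 ratio -0.81, -0.93 to -0.69). They entered no zone comparison.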
